A study of Caenorhabditis elegans with 4 samples.

Results

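Wide binding domains were taken from the peak list of ChIP replicate 2, one of the deposited lists of a chromatin immunoprecipitation sequencing (ChIP-seq) experiment in adult Caenorhabditis elegans. They were chosen by width: every nuclear peak of that list whose width, counted as end minus start plus 1, was at least 2000 bp. The rule gave 773 of the 6421 nuclear peaks of replicate 2 (12.04%, exact 95% binomial interval 11.3 to 12.9%). The other 5648 peaks of the same list are called narrower peaks. Since width chose the members, the width and the score of the replicate 2 list are given below as a description, with no test.

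The series has 4 samples, 2 ChIP samples and 2 input samples of sheared DNA without immunoprecipitation. All were labelled as hermaphrodites of the strain fem-2(b245), genotype fem-2(b245)III, and as young adults that contain a germline, although the growth protocol describes gravid adults. The gene fem-2 codes for a phosphatase that acts in sex determination. KLE-2 is the target in the sample titles, whereas the antibody record of the same samples names CEC-1, and the lists do not show which protein was recovered. The labels do not say whether replicates 1 and 2 were separate cultures. Only lists of peaks were analysed. They hold no read counts, and how many reads support a peak is therefore not known.

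KLE-2 is a subunit of condensin II, a ring-shaped complex that loops and compacts chromosomes, and in C. elegans a related condensin binds the X chromosomes of hermaphrodites for dosage compensation. CEC-1 has a chromodomain, a fold that in many proteins binds methylated histone tails. A peak caller such as MACS reports a stretch of the genome where ChIP reads exceed the background. A wide peak can therefore be a continuous bound region or several nearby sites that were joined, and the whole-series list, whose peaks are much narrower, gives a view inside each wide peak. All positions are on WormBase WS220. Gene annotation of that build was not used here, so regions are given by position only.

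The wide peaks were mostly just over the threshold, with a long tail. Their widths ran from 2002 to 10896 bp with a median of 2653 bp (interquartile range 2282 to 3389 bp), against 358 to 1999 bp with a median of 921 bp for the narrower peaks. Together they covered 2.34 Mb, which was 2.33% of the nuclear genome and 28.8% of the length of all replicate 2 peaks. Only 45 were 5 kb or wider, 15 of them on chromosome III, 9 on II, 7 on I, 6 on V, 5 on IV and 3 on X. The 3 peaks just inside the threshold were 2002 bp (chromosome III from 1615610), 2003 bp (II from 220260) and 2003 bp (II from 4227861), with scores of 3100, 3100 and 997. The 3 peaks just outside were each 1999 bp wide (II from 11694192, III from 5195908 and I from 9936972) and had scores of 3100, 1893 and 862. The threshold thus cuts through a continuous range of widths.

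Most wide peaks had a score of 3100 or more. The score is the authors' value from their peak caller on a scale that is not stated, and many peaks share a score of exactly 3100, so these cannot be ranked among themselves. Only 7 wide peaks scored above it. A score of 3100 or more was held by 491 of the 773 wide peaks (63.5%) and by 549 of the 5648 narrower peaks (9.72%). The share was 51.7% in wide peaks under 2.5 kb, 60.3% from 2.5 to 3 kb, 73.1% from 3 to 4 kb and 91.2% from 4 kb up. Scores of wide peaks went down to 103, and 26 wide peaks lay in the lower 50% of the list by score. The 5 lowest scores were on chromosome V from 4338013 to 4340031 (score 103), III from 317552 to 319632 (116), V from 9329268 to 9331715 (121), III from 8102179 to 8104357 (122) and V from 19364273 to 19366434 (128). The last of these was not weak in replicate 1, where a peak of 3043 bp with a score of 705 contained it whole.

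The widest peaks of the list took different shapes. The widest of all lay on X from 16929123 to 16940018 (10896 bp). In the whole-series list 90.3% of it was a single peak of 9835 bp, and replicate 1 had a peak of 10661 bp there with a score of 3100. A similar block lay on chromosome V from 7915116 to 7925332 (10217 bp), where 1 whole-series peak covered 91.3% and the replicate 1 peak was 10123 bp wide. These 2 regions had nearly the same extent in all 3 lists.

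Others broke into pieces. The region on chromosome II from 10554705 to 10564127 (9423 bp) held 6 whole-series peaks over 23.98% of its width, of which 5 scored from 1.36 to 4.05 and the last, of 948 bp near the right end, scored 229.9. Replicate 1 had only a peak of 1476 bp at that right end. On chromosome I the widest peak, from 503702 to 512037 (8336 bp), held 9 whole-series peaks of 150 to 956 bp, the most on any wide peak, with scores from 2.04 to 118.85. Replicate 1 marked it with peaks of 1636 and 1401 bp.

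The remaining peaks among the 10 widest, on chromosomes II, III and V, ranged across these forms. On II, from 14598131 to 14608916 (10786 bp), a piece of 6131 bp was flanked by 6 short ones, and from 8476198 to 8484144 (7947 bp) a piece of 4387 bp by 3. On V, from 4728713 to 4737365 (8653 bp), 4 whole-series peaks covered 35.1%, while the replicate 1 peak was 6842 bp wide. On III, the peak from 3862512 to 3870425 (7914 bp) held 5 pieces and had a replicate 1 peak of 5574 bp, and that from 12450238 to 12457804 (7567 bp) held 5 pieces of 627 to 970 bp and had replicate 1 peaks of 1041 and 1068 bp. The peak on III from 6566716 to 6574521 (7806 bp) stood apart. Its replicate 2 score was only 181, no replicate 1 peak lay on it, and 3 whole-series peaks covered 93.9% of it with scores from 7.11 to 22.16. The widest on chromosome IV, from 15076190 to 15082813 (6624 bp), was covered to 97.6% by 2 strong whole-series peaks with scores of 209.11 and 229.84.

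Wide peaks were split by the whole-series list more often than narrower ones. At least 2 whole-series peaks lay on 514 of the 773 wide peaks (66.5%, 63.0 to 69.8%), against 512 of 5648 narrower peaks (9.07%, 8.33 to 9.84%). A wider peak has more room for several pieces, so this difference was not tested. Per kb of width, wide peaks held 0.706 whole-series peaks and narrower peaks 0.916. Since only 9.07% of narrower peaks held 2 or more, their value mostly counts single pieces on short peaks. It does not measure splitting. Of the wide peaks, 11 held no whole-series peak, 248 held 1, 285 held 2, 133 held 3, 63 held 4, 22 held 5 and 11 held 6 or more. The mean number was 1.65 on wide peaks under 2.5 kb and 3.36 on those of 4 kb or more.

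**Figure D1:**
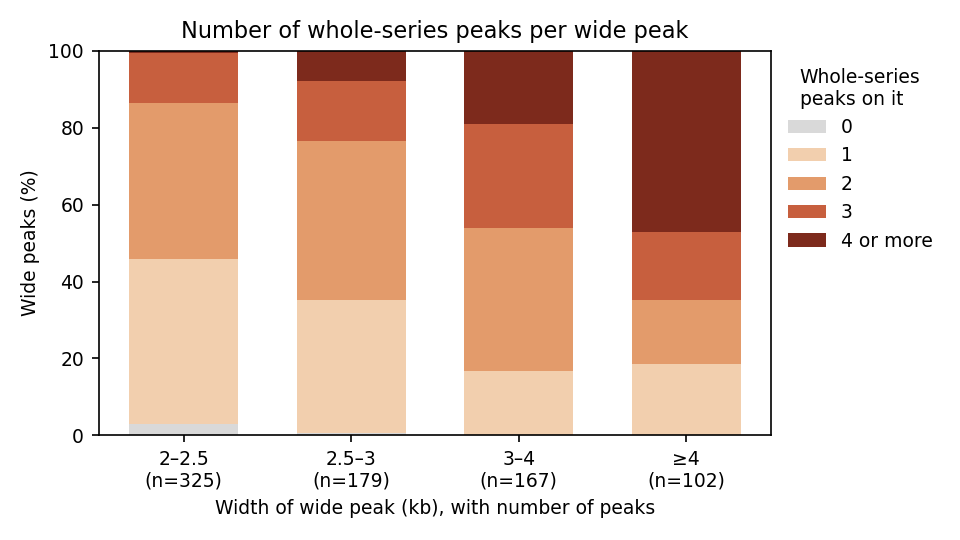
Share of wide peaks (%) that held 0, 1, 2, 3 or at least 4 whole-series peaks, for 4 classes of width in kb, with the number of wide peaks in each class below the bar. Wide peaks with 2 or more whole-series peaks made up 54.2% of the narrowest class, 83.2% of the class from 3 to 4 kb and 81.4% of the widest.

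The pieces within a wide peak lay close together and were unequal. Between neighbouring pieces the median gap was 326 bp, and 617 of 889 such gaps (69.4%) were under 500 bp. Whole-series peaks on wide peaks had a median width of 491 bp and a median score of 21.1, against 330 bp and 15.3 for those only on narrower peaks. The highest-scored piece of each wide peak had a median score of 86.6, against 17.8 for narrower peaks. Of the wide peaks, 382 (49.4%) held a whole-series peak among the 10% with the highest scores in that list, against 526 narrower peaks (9.31%). A wider peak has more room for a high-scored piece, so these differences were not tested. Among wide peaks this share moved with the replicate 2 score, and it is given by score below. The middle of the largest piece lay in the central 50% of the wide peak in 572 of 762 cases. A piece inside the wide peak that covers at least 50% of it has its middle there wherever it lies. No expected count was made, so central placement was not tested. Whether the whole-series list contains the reads of replicate 2 is not stated, so none of these values is independent of the list that chose the members.

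The most pieces after the 9 on chromosome I were 7 on each of 3 peaks, the one on II described above, III from 12366216 to 12371932 (5717 bp) and IV from 11371395 to 11377820 (6426 bp). On the last, a piece of 981 bp scored 44.51 and the other 6 scored from 3.09 to 5.04. The peak on I from 12964189 to 12969376 (5188 bp), 1 of several with 6 pieces, had piece scores from 1.81 to 235.62. Except for the peak on IV, each of these named peaks had a replicate 1 peak on it. Of all 11 wide peaks with 6 or more pieces, 9 had a replicate 1 peak and 2 did not.

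Wide peaks of high and of lower score differed in what lay inside them. Wide peaks at or above 3100 were covered by whole-series peaks to a median of 54.9%, against 34.2% for those below. A whole-series peak among the 10% with the highest scores lay on 368 of 491 at or above 3100 (74.9%, 70.9 to 78.7%). Below 3100 it lay on 14 of 282 (4.96%, 2.74 to 8.19%). The share of narrower peaks given above is over all scores and is not given for those below 3100, so it is not a like comparison. The highest-scored piece had a median score of 128.4 at or above 3100 and 27.9 below, both higher than in narrower peaks of any score. At least 2 pieces lay on 65.0% of those at or above 3100 and on 69.1% of those below. At least 4 lay on 74 of 491 at or above 3100 (15.1%, 12.02 to 18.5%) and on 22 of 282 below (7.80%, 4.95 to 11.6%). Median widths were 2841 bp at or above 3100 and 2442.5 bp below. Of the 45 peaks of 5 kb or more, 42 scored at or above 3100, 28 held 4 or more pieces, and 38 had a replicate 1 peak (84.4%, 70.5 to 93.5%).

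The chromosomes differed in how often wide peaks were split. At least 2 whole-series peaks lay on 135 of 170 wide peaks on III (79.4%) and 130 of 178 on I (73.0%). The share was 63.8% on IV (95 of 149), 58.6% on V (68 of 116), 56.0% on X (14 of 25) and 53.3% on II (72 of 135). In the same order, median widths were 2732.5 bp on III, 2694.5 bp on I, 2719 bp on IV and 2556 bp on V. They were 2733 bp on X and 2563 bp on II. The part of the width in these shares was not tested.

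A second form of wide peak was a single block. In 88 of the 773 wide peaks (11.4%, 9.23 to 13.8%) 1 whole-series peak covered at least 80% of the width, against 61 of 5648 narrower peaks (1.08%, 0.83 to 1.39%). The limit of 80% was set after the values were seen, and 25 wide peaks lay between 70 and 80% and 59 between 80 and 90%. The median width was 2728 bp for single blocks and 2645 bp for the other 685 wide peaks, a difference that was not tested. Of the 88 blocks 77 lay on autosomes, 48 of these on arms (62.3%, 50.6 to 73.1%), and 11 lay on X. Arms held 307 of the other 671 autosomal wide peaks (45.8%, 41.9 to 49.6%) and 49.5% of autosomal narrower peaks. The arm share of blocks was not tested. After the blocks on X and V described above and the low-scored peak on III, the 5 widest autosomal blocks were 6101 to 6564 bp wide. Those on V lay from 9338227 to 9344790 and from 10017978 to 10024481. Those on II lay from 693521 to 699674 and from 11756218 to 11762318, and the block on I from 13609716 to 13615855. Each had a score of 3100 and a replicate 1 peak of 5719 to 9154 bp. Single blocks also stood further from other replicate 2 peaks, at a median gap of 5529 bp against 1614 bp for all wide peaks.

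Single blocks lay on replicate 1 peaks more often than the other wide peaks. A replicate 1 peak lay on 79 of the 88 blocks (89.8%, 81.5 to 95.2%) and covered a median of 94.9% of the block. Among the other 685 wide peaks the share was 52.8% (362 peaks, 49.0 to 56.6%). The limit is on the cover of the largest piece, so 8 of the 88 blocks also held a further piece. Of the 514 wide peaks with at least 2 pieces, 281 (54.7%) had a replicate 1 peak. The share with a replicate 1 peak was 31.8% where the largest piece covered under 20% of the wide peak (195 peaks), 55.5% from 20 to 40% (348 peaks), 70.8% from 40 to 60% (89 peaks), and 85.7%, 80%, 88.1% and 93.1% in the classes from 60, 70, 80 and 90%. The classes rest on the whole-series list and were set after the values were seen, so no test was made of them. Whether that list was called on pooled replicates is not stated. If it was, it holds replicate 1 reads, and these shares are not independent of replicate 1. Of the 88 blocks 83 had a replicate 2 score of 3100 or more, which moves with the share found in replicate 1, and the part of the score in it was not tested.

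**Figure D2:**
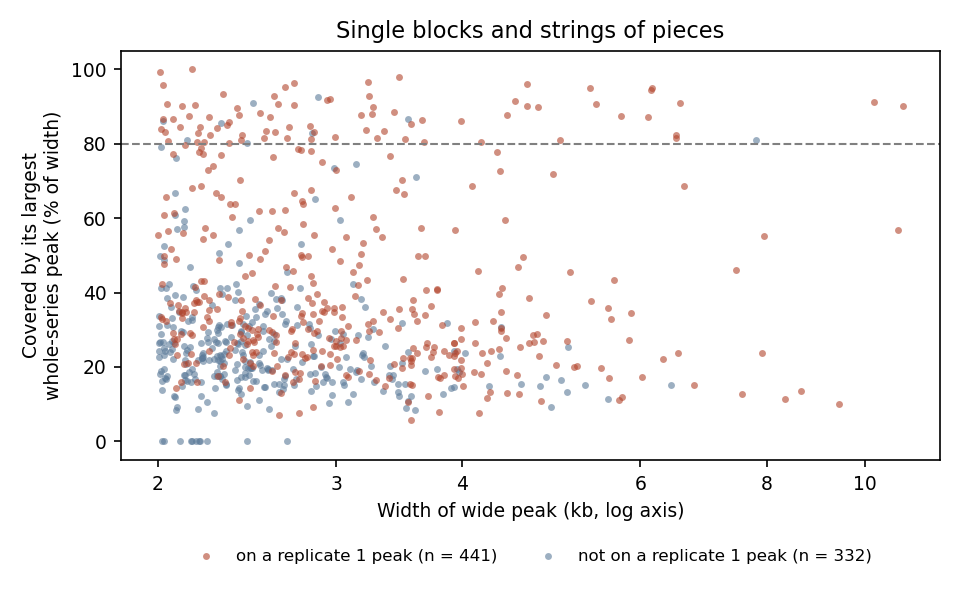
Each point is a wide peak, placed by its width in replicate 2 (kb, log axis) and by the share of that width covered by its largest whole-series peak (%); red points are on a replicate 1 peak (441) and blue points are not (332). Above the dashed line at 80%, 79 of 88 peaks are red, and most blue points lie under 40%.

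The comparison with replicate 1 asked whether the wide domains recur in the other ChIP sample. Replicate 1 has 1178 peaks, and 16.3% of all replicate 2 peaks shared at least 1 bp with them. Among wide peaks this share was 57.1% (441 of 773, 53.5 to 60.6%), and among narrower peaks 10.7% (606 of 5648). Because a wide peak can touch another list more easily, the midpoint of each peak, which is a single base whatever the width, was used for the test. Of all replicate 2 midpoints 14.3% lay inside a replicate 1 peak. This was the case for 337 of 773 wide peaks (43.6%, 40.1 to 47.2%) and 582 of 5648 narrower peaks (10.3%, 9.52 to 11.1%). The odds ratio was 6.72 (95% interval 5.68 to 7.97, Fisher's exact test, two-sided, adjusted p = 5.36e-103). Peaks lie close together and are not independent replicates, so this p and those below are too small.

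The difference moved with the score. Among peaks with a replicate 2 score of 3100 or more, the midpoint lay in a replicate 1 peak for 58.5% of 491 wide peaks (54.0 to 62.9%) and 57.2% of 549 narrower peaks (52.9 to 61.4%), intervals that overlap almost fully. Below that score it did so for 17.7% of 282 wide peaks (13.5 to 22.7%) and 5.26% of 5099 narrower peaks (4.66 to 5.90%), with adjusted p = 1.65e-12 by Fisher's exact test. Within the class below 3100 the median score was 1646 for wide peaks and 282 for narrower peaks, and the part of the score in this difference was not tested. By overlap of at least 1 bp, the shares at 3100 or more were 74.9% of wide peaks (70.9 to 78.7%) and 58.1% of narrower peaks (53.9 to 62.3%). Such an overlap favours a wide peak, while a midpoint misses a replicate 1 peak that lies off centre. This difference was not tested.

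**Figure D3:**
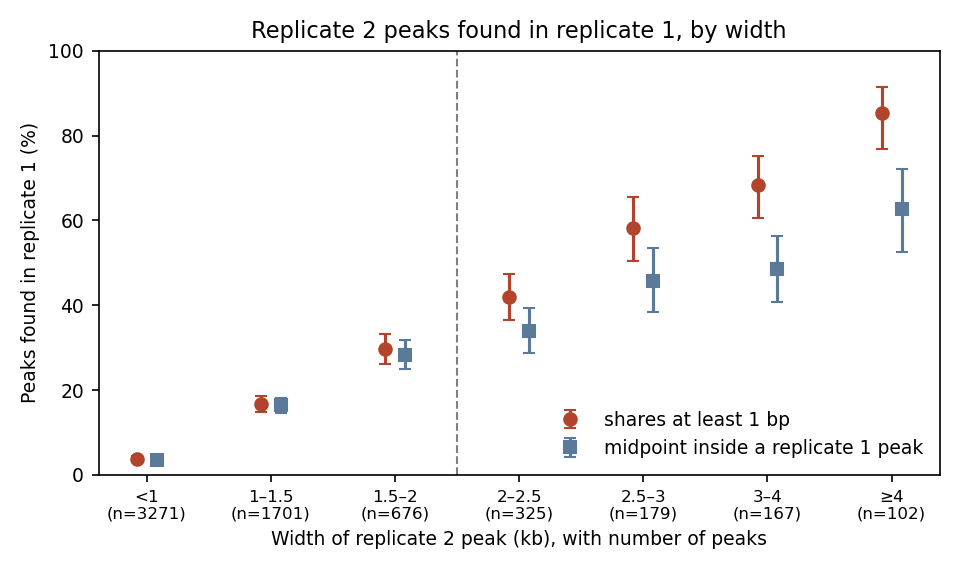
Share of replicate 2 peaks (%) that shared at least 1 bp with a replicate 1 peak (red circles) or had their midpoint in one (blue squares), by width class in kb with the number of peaks; bars are exact 95% binomial intervals and the dashed line marks 2 kb. The shares rise from 3.73% and 3.42% in the narrowest class to 85.3% and 62.7% in peaks of at least 4 kb, with no step at the threshold.

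Where a wide peak recurred, its replicate 1 peak was often below 2 kb. Members were chosen for their width in replicate 2, so a lower width in the other list follows in part from the choice, and these widths are a description only. By its own width rule replicate 1 had wide peaks of nearly the same median width, 2674 bp. Of the 773 wide peaks, 169 (21.9%) lay on a replicate 1 peak that was itself at least 2000 bp wide. This was 9.23% of wide peaks under 2.5 kb and 52.9% of those of 4 kb or more. Among the 378 cases in which a wide peak and a replicate 1 peak overlapped only each other, widths had a median of 2779 bp in replicate 2 and 1683 bp in replicate 1, and the median ratio of replicate 1 to replicate 2 was 0.605. It lay inside the wide peak in 250 cases, was wider in 46, and had a width within 10% of it in 66. Over these pairs Spearman's rho of the widths was 0.34 and Pearson's r 0.67, a description across regions of 2 libraries and not of replicates. A further 49 wide peaks each spanned at least 2 replicate 1 peaks, against 3 narrower peaks.

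**Figure D4:**
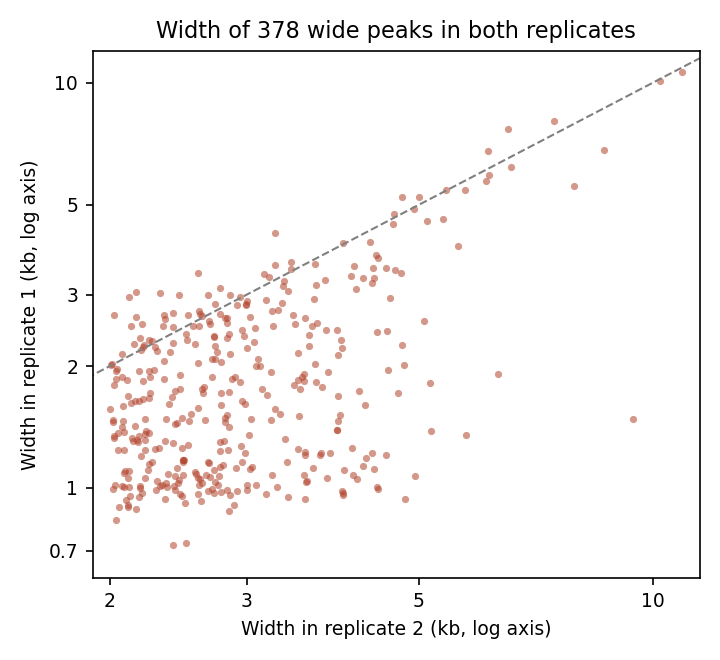
Width in replicate 1 against width in replicate 2 (both in kb on log axes) for the 378 wide peaks that overlapped exactly 1 replicate 1 peak which overlapped no other replicate 2 peak; the dashed line marks equal widths. Most points lie below the line, and the 2 widest lie on it at about 10 kb in both lists.

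Seen from replicate 1, a similar number of wide regions was shared, out of a shorter list. By the same width rule replicate 1 had 228 wide peaks of 1178 (19.4%). Of these 171 (75%, 68.9 to 80.5%) lay on a wide replicate 2 peak, 24 on narrower replicate 2 peaks only and 33 on none. Over all 1178 replicate 1 peaks, 489 (41.5%) lay on a wide replicate 2 peak. The 171 wide replicate 1 peaks correspond to the 169 wide replicate 2 peaks above, and the shares differ with the lengths of the 2 lists. Of the 46 replicate 1 peaks with a score of 3100 or more, 39 lay on a wide replicate 2 peak and 7 on narrower ones.

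The 332 wide peaks without a replicate 1 peak were narrower and lower in score, with a median width of 2432 bp and a median score of 2418. The 5 widest of them were the low-scored peak on III from 6566716 and the peak with 7 pieces on IV from 11371395, both described above, and 3 peaks on III with scores of 3100. These 3 lay from 12221932 to 12227505 (5574 bp, 6 pieces), from 4094423 to 4099713 (5291 bp, 4 pieces) and from 9050961 to 9056045 (5085 bp, 4 pieces). Their highest piece scores in the whole-series list were 173.14, 54.57 and 165.82. The 11 wide peaks without any whole-series peak also had no replicate 1 peak, and were 2019 to 2686 bp wide with scores of 103 to 433. The 5 widest of these lay on IV from 3743470 to 3746155, V from 9329268 to 9331715, III from 7494923 to 7497158, V from 13655086 to 13657287 and I from 12497885 to 12500081.

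Wide peaks were sparse on X. Chromosome III had 170 wide peaks (12.3 per Mb, exact 95% Poisson interval 10.5 to 14.3) and chromosome I had 178 (11.8, 10.1 to 13.7). II had 135 (8.84, 7.41 to 10.5), IV had 149 (8.52, 7.20 to 10.0) and V had 116 (5.54, 4.58 to 6.65). X had 25 (1.41 per Mb, 0.91 to 2.08), against 9.06 per Mb for the autosomes together. The intervals of III and I overlap, as do those of I and II and those of II and IV. The interval of V lies below these 4, and that of X below all others. The fraction of each autosome covered by wide peaks ran from 1.64% on V to 3.79% on III, and on X it was 0.484%.

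Relative to the peaks called on X, wide peaks were fewer than on autosomes in replicate 2 and more in replicate 1. X held 25 of 773 wide peaks (3.23%, 2.10 to 4.74%) and 477 of 5648 narrower peaks (8.45%, 7.73 to 9.20%), an odds ratio of 0.36 (0.23 to 0.55, Fisher's exact test, two-sided, adjusted p = 6.14e-08). Put the other way, 4.98% of the replicate 2 peaks on X were wide, against 10.8 to 13.5% on each autosome. Across width classes, X held 11.95% of replicate 2 peaks under 1 kb. It held 3.94% from 1 to 1.5 kb and 2.81% from 1.5 to 2 kb. In the wide classes the share was 2.77 to 4.90%. Of the 477 narrower peaks on X, 391 were under 1 kb, so the contrast rests on that class. Narrower peaks of 1 kb or more had X shares like those of wide peaks. In replicate 1, X held 22 of 228 wide peaks (9.65%, 6.15 to 14.2%) and 40 of 950 narrower peaks (4.21%, 3.02 to 5.69%, Fisher's exact test, adjusted p = 0.00366), and 35.5% of its peaks on X were wide. The counts of wide peaks on X were nearly equal, at 25 and 22, while the counts of all peaks on X were 502 and 62. The share of wide among called peaks on X thus had opposite directions in the 2 lists. The density did not. Wide replicate 1 peaks numbered 1.24 per Mb on X (0.78 to 1.88) and 2.495 per Mb on the autosomes together (2.17 to 2.86), so X had fewer wide peaks per Mb than the autosomes in both lists. In replicate 1 the interval of X overlapped those of I, III, IV and V.

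The wide peaks on X that were called often recurred in replicate 1. A replicate 1 peak lay on 21 of 25 (84.0%, 63.9 to 95.5%), against 420 of 748 on autosomes (56.1%, 52.5 to 59.7%). For narrower peaks the order was opposite, with 32 of 477 on X (6.71%) and 574 of 5171 on autosomes (11.1%). A single whole-series peak covered at least 80% of 11 of the 25 wide peaks on X (44.0%, 24.4 to 65.1%), against 77 of 748 on autosomes (10.3%, 8.21 to 12.7%). These differences were noticed in the data and were not tested. Besides the peak of 10896 bp, blocks on X with a score of 3100 in both replicates lay from 2057569 to 2064076 (6508 bp in replicate 2 and 7696 bp in replicate 1) and from 12662843 to 12668576 (5734 and 5445 bp). The 9 wide peaks on X with scores under 3100 had a different form. Their scores ran from 510.5 to 1999, they were 2143 to 3592 bp wide, and whole-series peaks with scores of at most 48.91 covered 10.3 to 54.2% of each. Replicate 1 had a peak on 6 of these 9 and on 15 of the 16 with a score of 3100 or more.

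**Figure D5:**
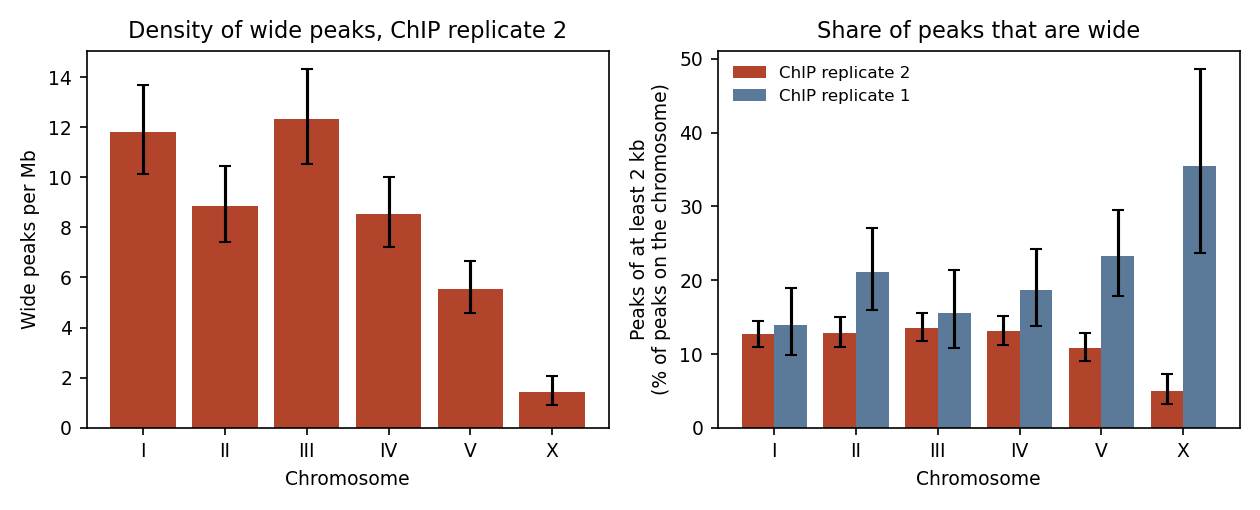
Left, wide peaks per Mb on each chromosome in ChIP replicate 2, with exact 95% Poisson intervals. Right, peaks of at least 2 kb as a share of all peaks on the chromosome (%) in ChIP replicates 2 (red) and 1 (blue), with exact 95% binomial intervals; on X the share was 4.98% in replicate 2 and 35.5% in replicate 1.

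Along the autosomes the arm share of wide peaks did not pass the test at the threshold of 2 kb, and the outcome changed with the setting. Arms meant the first and the last 25% of a chromosome. They held 355 of 748 autosomal wide peaks (47.5%, 43.8 to 51.1%) and 2562 of 5171 narrower ones (49.5%, 48.2 to 50.9%), a difference that did not pass Fisher's exact test (adjusted p = 0.291). The odds ratio was 0.92 (0.79 to 1.08). The share was lowest on III, where 72 of 170 wide peaks were on arms (42.4%, 34.8 to 50.2%) against 50.4% of narrower peaks. With a threshold of 1500 bp the arm share was 45.8% against 50.4% and passed the test (adjusted p = 0.00335), and at 3000 bp the order was the opposite, 51.2% against 49.2% (adjusted p = 0.567, both Fisher's exact test). Among peaks with scores below 3100 it was 43.6% against 49.96% and passed the test (Fisher's exact test, adjusted p = 0.0461). These adjusted p-values were not corrected for the number of settings tried. On X 18 of 25 wide peaks were on arms (72.0%, 50.6 to 87.9%) and 268 of 477 narrower ones (56.2%).

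The ends of a chromosome were unequal. On chromosome I the left arm held 65 wide peaks and the right arm 23, which is 36.5% and 12.9% of those on the chromosome, against 29.2% and 21.3% of narrower peaks. On V it was 39 and 18 wide peaks (33.6% and 15.5%), against 22.4% and 23.7% of narrower peaks. On II the order was reversed, with 16 on the left and 52 on the right (11.9% and 38.5%), against 19.5% and 30.5% of narrower peaks. On I and II the narrower peaks leaned the same way as the wide ones but less, and on V they were nearly even. These differences were not tested. The left and right arms held 29 and 43 wide peaks on III, 31 and 39 on IV, and 9 each on X.

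Wide peaks were spread out, with some short chains. The median gap between neighbouring wide peaks was 62.4 kb (exact 95% interval 54.5 to 70.7 kb, 767 gaps), from 43.4 kb on I to 77.6 kb on II among autosomes and 625 kb on X. Gaps under 10 kb numbered 124 (16.2%), 1 of them on X, and 49 were under 2 kb. The longest gap was 2322 kb on X and, among autosomes, 1337 kb on V. Linking neighbours less than 10 kb apart gave 94 chains with 218 wide peaks, and the other 555 stood alone. In 1 Mb windows the median was 1 wide peak on X (17 windows, at most 3) and 8 on autosomes (80 windows, at most 19). The window with the most was on II from 11000001 to 12000000, where 19 of 104 replicate 2 peaks were wide.

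Within the whole list a wide peak often had a close neighbour of any width. The nearest replicate 2 peak lay under 2 kb away for 426 of 773 wide peaks (55.1%) and 2712 of 5648 narrower peaks (48.0%). The following peak of the list was itself wide after 110 of the 773 wide peaks (14.2%, 11.8 to 16.9%) and after 663 of 5642 narrower peaks (11.8%, 10.9 to 12.6%), with intervals that overlap.

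The chain with the most wide peaks lay on chromosome I from 2060981 to 2087122. It had 5 wide peaks of 2455 to 4231 bp over 26.1 kb, with 17 whole-series peaks, and 3 of the 5 had a replicate 1 peak. Chains of 4 numbered 5. The longest of these were on IV from 15027142 to 15061226 (34.1 kb, wide peaks over 32.9%) and on III from 7160743 to 7190374 (29.6 kb, 40.7%), each with a replicate 1 peak on 2 of 4. A denser chain of 4, named after its values were seen, ended with the 9423 bp peak on II. It ran from 10541523 to 10564127, where wide peaks covered 87.1% of 22.6 kb and 2 of the 4 had a replicate 1 peak.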

How the data were processed

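The files were 3 peak lists on WormBase WS220, per the file headers (ce10 in the submitters' processing notes). BWA is the aligner named in the submitters' processing notes. The lists name MACS (replicates 1 and 2) and MACS v2 (whole series) as caller, per the file contents. Input, thresholds, pooling of replicates and handling of duplicate reads are not given in the sources used here. The values are the deposited score of each peak, made by the authors' peak caller on a scale that is not stated, so scores were compared only within a list.

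Nuclear peaks were analysed, and 2 mitochondrial peaks were left out. The lengths of the WS220 chromosomes were typed in as settings. Overlap meant at least 1 shared bp. Shares have exact (Clopper-Pearson) 95% intervals and densities exact Poisson intervals, which cover counting error only. Fisher's exact tests (two-sided, SciPy 1.17.1, Python 3.11.15) compared wide with narrower peaks in X share, autosomal arm share and midpoints in replicate 1, with Benjamini-Hochberg adjustment over these 3 tests. For the replicate 1 list, which has no midpoint test, the adjustment kept the midpoint p of replicate 2. The adjusted p of its X share is therefore smaller than over its own tests alone. These p-values treat peaks as independent and say nothing of variation between cultures. Overlaps and the test were checked on simulated data. Named peaks are the 10 widest, the widest per chromosome, the 5 with most pieces, the 5 lowest in score, the 5 widest without a replicate 1 or a whole-series peak, those at the threshold and the 3 chains with most wide peaks. Blocks, peaks on X and a further chain on II were named after their values were seen. The members and lists were chosen with earlier results of these data known. Other widths, arm limits, score limits and overlap rules were tried, and the list of replicate 1 was used in place of replicate 2.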

Additional observations from a re-analysis of the deposited data

How the results depend on the processing

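Of 34 combinations of a result and another setting, 11 kept their outcome, 19 moved a value without a test, 2 passed a test that the reported value did not and 2 turned the direction. No adjusted p was corrected for the number of settings. With widths of at least 1500 bp there were 1449 wide peaks, 44.2% overlapped by replicate 1, 53.2% with at least 2 whole-series peaks, a median gap of 29.5 kb and 50.3% at or above the limiting score. The arm share of 45.8% was then lower than in narrower peaks (Fisher's exact test, adjusted p = 0.00335). With at least 3000 bp these values were 269, 74.7%, 82.5%, 152 kb and 79.9%, and the arm share of 51.2% was above that of narrower peaks. Below the limiting score, 25.9% were overlapped by replicate 1, the median gap was 186 kb, and the arm share was 43.6% against 49.96% (Fisher's exact test, adjusted p = 0.0461). Replicate 1 overlapped 36.1% when at least 50% of the wide peak had to be shared, and 37.5% with its peaks at or above the median score. With whole-series peaks at or above the median score, 36.2% held at least 2. Without ChIP replicate 2, the rule on replicate 1 gave 228 wide peaks, 9.65% on X (above narrower peaks, the opposite direction), 52.2% with at least 2 whole-series peaks, a median gap of 231 kb and 17.1% at the limiting score. Leaving out replicate 1 does not change the members. The cause of these changes was not tested, apart from the fewer or more peaks each width setting counts. The midpoint result kept its direction and passed the test under each setting tried (31.7 to 53.9%, and 17.7% below the limiting score). These settings did not include peaks at or above the limiting score alone. There the midpoint shares were 58.5% of 491 wide and 57.2% of 549 narrower peaks, with intervals that overlap almost fully. By 1 bp overlap, which favours wide peaks, they were 74.9% and 58.1%. No paired analysis was possible because the input samples have no peak list here and the results come from peaks of 1 sample. Depth per peak is unknown.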

Other observations

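The whole-series list had its own wide peaks, which the width rule on replicate 2 does not use. Of 140 nuclear whole-series peaks of at least 2000 bp, 98 (70%, exact 95% binomial interval 61.7 to 77.4%) lay on a wide replicate 2 peak and 38 (27.1%, 20.0 to 35.3%) on no replicate 2 peak of any width. The same shares over all 9212 nuclear whole-series peaks are not given here. Whether 70% and 27.1% are high or low for that list is therefore not known. The widest whole-series peak on no replicate 2 peak reached 11067 bp, wider than any replicate 2 peak.

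Scores above 3100 were rare among the wide peaks, and narrower peaks with such scores were not counted here. They occurred on 7 wide peaks, from 3110 to 3212, with the top value at a peak of 2479 bp on chromosome I (11909024 to 11911502). None of the 7 was over 5 kb wide, and 3 of them had a replicate 1 peak.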
